A study of Mus musculus with 10 samples.

Results

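The sites described here are Nanog-only sites that lie close to sites bound by both Nanog and Sin3a in mouse pre-iPSCs. Peaks of 4 ChIP-seq lists were merged wherever they shared 1 base or more. A merged region was kept when it held FLAG peaks of both Nanog-expressing lines, held no Sin3a peak, and lay within 10 kb, edge to edge, of a region with peaks of all 4 lists. This gave 3192 regions, called near Nanog-only regions below, out of 12306 Nanog-only regions and 45707 merged regions in all. The remaining 9114 Nanog-only regions are called far, and the 11761 regions with peaks of all 4 lists are called all-4 regions.

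The cells were pre-iPSCs of strain 129/MF1, derived from female neural stem cells, carrying an Oct4-GFP-IRES-puro reporter and grown in serum with LIF. Stable lines had been made by drug selection after transfection with PiggyBac vectors driven by the CAG promoter, which is active in most cell types, so Nanog and Sin3a were ectopic in each line in which they are named. The labels name them Sin3a + EV, Nanog (FLAG) + EV, and Nanog (FLAG) + Sin3a, the last of which is called the dual line here. FLAG ChIP was done in the Nanog + EV line and the dual line, and Sin3a ChIP in the Sin3a + EV line and the dual line. The FLAG antibody reports the tagged Nanog alone, whereas a Sin3a antibody does not separate ectopic from endogenous Sin3a. Each of these 4 groups had 2 samples but 1 peak list, with no value per replicate, so no difference below could be set against a spread between replicates. Intervals are 95% intervals over regions and cover counting error only, and no p-value was computed.

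Nanog is a homeodomain transcription factor of the core pluripotency network, and in embryonic stem cells much of its binding is at enhancers, where it often lies in clusters with other pluripotency factors. Sin3a does not itself recognise a DNA sequence. It is a scaffold that brings histone deacetylases to chromatin through transcription factors, and it is found at many active promoters as well as at repressed genes. Pre-iPSCs are cells halted on the way to pluripotency, which added Nanog can help to complete.

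The absence of Sin3a at these regions is the absence of a called peak. The regions were chosen by measured values, namely the presence and absence of peaks in all 4 lists and the distance between them, so these are given as a description.

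Nanog-only regions lay near all-4 regions less often than regions of most other classes did. Of the Nanog-only regions, 25.9% lay within 10 kb of an all-4 region (interval 25.2 to 26.7%), while 32.2% of every region outside the all-4 class did so. Regions with any Sin3a peak outside the all-4 class were near in 47.4% of cases (46.3 to 48.5%), and regions with Sin3a peaks only in 55.2% (53.2 to 57.1%). All-4 regions lay within 10 kb of another all-4 region in 41.1% (40.2 to 42.0%). Among regions with FLAG peaks only, the share depended on the line. It was 35.4% (34.4 to 36.5%) for those found in the Nanog + EV line alone and 22.4% (21.4 to 23.4%) for those found in the dual line alone, with the Nanog-only regions of both lines in between. When only peaks with a −log10 q of at least 10 were kept, 922 regions met the rule, and the shares came closer together, at 13.5% of Nanog-only regions and 15.0% of every region outside the all-4 class.

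Within the 10 kb limit the regions crowded toward the all-4 region. Their distances ran from 7 to 9987 bp, with a median of 2920 bp and quartiles of 970 and 5844 bp. Of the Nanog-only regions, 560 lay up to 0.5 kb away, 248 at 0.5 to 1 kb, 433 at 1 to 2 kb, 948 at 2 to 5 kb and 1003 at 5 to 10 kb. Per kb of distance, this was 9.10% of the class in the first 0.5 kb, 1.63% at 5 to 10 kb and 0.62% at 20 to 50 kb, so the density declined through and beyond the limit with no step at it. The decline was steeper for regions with Sin3a peaks only, at 60.9% per kb in the first 0.5 kb and 1.15% at 5 to 10 kb. All-4 regions themselves had 26.8% per kb of their neighbours in the first 0.5 kb.

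**Figure D1:**
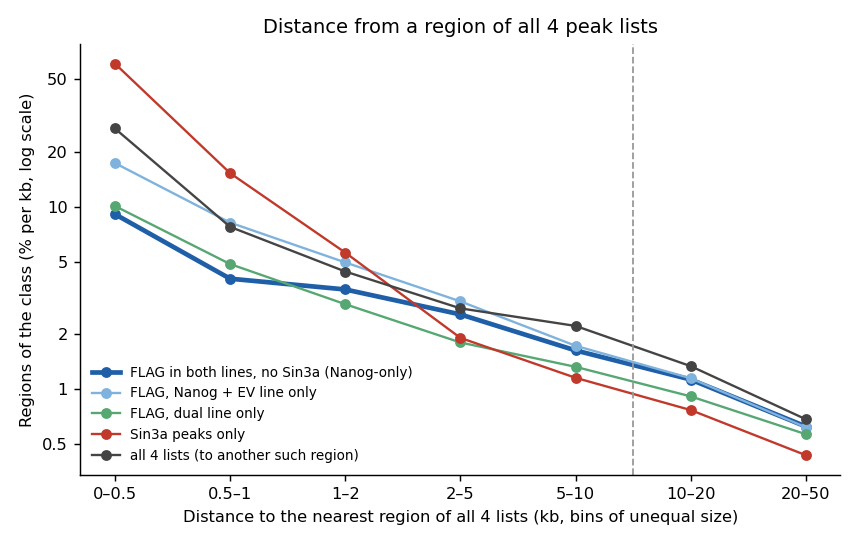
Share of each class of region per kb of distance to the nearest region of all 4 lists (log scale), by distance bin in kb, and the dashed line marks 10 kb. Nanog-only regions start at 9.10% per kb in the first 0.5 kb, the lowest of the 5 classes, and decline to 0.62% at 20 to 50 kb.

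The nearest regions show how little can separate the classes. On chromosome 1 (all coordinates are of mouse build mm9), the Nanog-only region at 113760571-113761067 lay 7 bp from the all-4 region at 113761075-113761779. Its FLAG fold was 4.07 in the Nanog + EV line and 3.80 in the dual line, and those of its neighbour were 4.22 and 4.49. Fold is the authors' enrichment at the summit of the ChIP signal over expected background. The neighbour's Sin3a folds were also low, at 3.65 (Sin3a + EV line) and 3.87 (dual line), so this pair is weak in every list. On chromosome 10 the region at 44786003-44786365 lay 11 bp from an all-4 region, with FLAG folds of 3.69 and 3.47 against 5.67 and 5.88 next door. That neighbour, at 44786377-44787725, had Sin3a folds of 7.91 and 7.44. On chromosome 13 the region at 56534426-56534786 lay 12 bp away, with FLAG folds of 4.91 and 3.22 in the Nanog + EV and dual lines.

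At the other end, the limit of 10 kb cut through a continuum. Just inside it lay the regions on chromosome 11 at 53124883-53125290 (9987 bp away, FLAG folds 4.16 and 4.24) and at 98735168-98735584 (9982 bp, 9.49 and 8.55), and on chromosome 1 at 184201244-184201620 (9980 bp, 4.26 and 4.33). Just outside lay the regions on chromosome 16 at 20702633-20702899 (10003 bp, 3.29 and 2.37), and on chromosome 7 at 71421755-71422244 (10005 bp, 3.83 and 3.14) and at 87355139-87355590 (10009 bp, 4.45 and 5.38). In each bracket the first fold is that of the Nanog + EV line and the second that of the dual line. These values inside and outside the limit overlap.

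FLAG-Nanog enrichment at the near regions was a little lower than at the far regions, and lower than at all-4 regions. In the Nanog + EV line the fold had a median of 4.73 (quartiles 3.93 and 5.88, maximum 30.3), against 4.91 (3.99 and 6.36) at far regions and 6.74 (5.21 and 8.87) at all-4 regions. In the dual line the median was 4.36 (3.69 and 5.63, maximum 27.7), against 4.87 (3.93 and 6.77) at far regions and 5.77 (4.49 and 7.66) at all-4 regions. Over every FLAG peak of the list the median fold was 4.75 in the Nanog + EV line and 4.74 in the dual line. The near regions were thus close to the list median in the first and below it in the second. Where a region held several peaks of a list the strongest was taken, which bears mostly on the all-4 regions. The ratio of near to far medians was 0.964 in the Nanog + EV line and 0.896 in the dual line, and the quartile ranges of near and far regions overlapped widely in both lists. No step lay at the 10 kb limit. In the Nanog + EV line the median was 4.75 at 5 to 10 kb and 4.75 at 10 to 20 kb, against 4.59 up to 0.5 kb and 5.03 over 100 kb. The dual line had 4.58, 4.54, 4.11 and 5.12 in these bins.

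**Figure D2:**
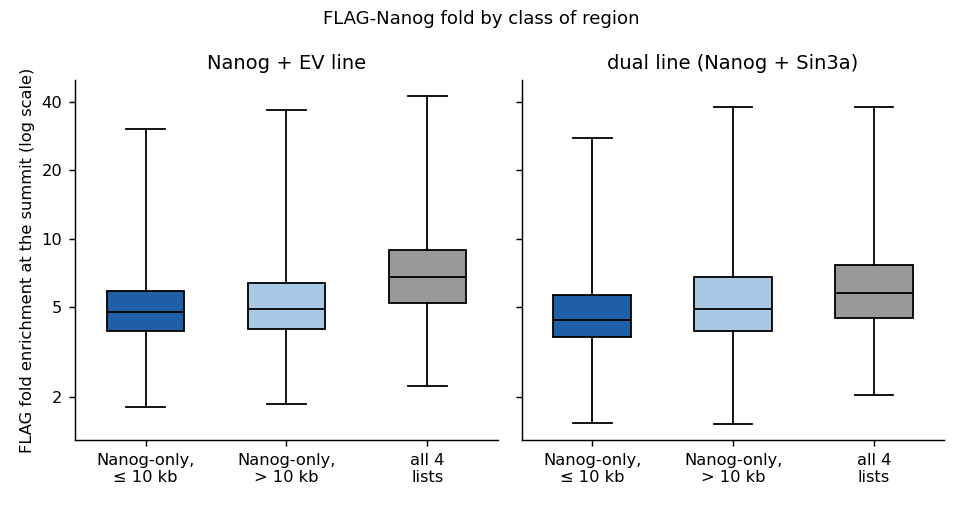
FLAG fold enrichment at the summit (log scale) in each FLAG list for near Nanog-only, far Nanog-only and all-4 regions. Boxes give quartiles and median, and whiskers the lowest and highest region. Near Nanog-only regions have the lowest median in both lists, 4.73 and 4.36.

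Near regions were also lowest, and all-4 regions highest, in ChIP fragments over the summit, a number recovered from fold and p-value before scaling. Near regions had a median of 33 fragments in the Nanog + EV line and 37 in the dual line. Far regions had 34 and 41, and all-4 regions 47 and 49. At these numbers the counting error of 1 region is large: a region with 27 fragments has a Poisson interval of 17.8 to 39.3. The expected background at the summit moved with the classes as well, with near medians of 4.89 and 4.97 scaled fragments against 4.71 and 4.78 at far regions. It was 1.04 times as high at near regions in each list, and its part in the fold was not tested. The ratio of near to far scaled signal, before division by background, was 0.971 in the Nanog + EV line and 0.902 in the dual line. Which peaks were called still depended on the background.

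Strong peaks were less frequent among the near regions. A deposited −log10 q of 25 or more in both FLAG lists was reached by 221 near regions, 6.92% (6.09 to 7.86%), against 10.5% (9.92 to 11.2%) of far and 22.3% (21.5 to 23.0%) of all-4 regions. Weak peaks were more frequent in them. A −log10 q under 5 in at least 1 FLAG list was found at 933 near regions, 29.2% (27.7 to 30.8%), at 23.4% (22.5 to 24.3%) of far regions and at 9.25% (8.74 to 9.79%) of all-4 regions.

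Seen from the strength of the peaks, the share of Nanog-only regions near an all-4 region was lower in each stronger quintile of the class. Ranked by mean −log10 q over both FLAG lists, 32.5% (30.7 to 34.4%) of the weakest quintile were near, then 28.0%, 27.5% and 22.8%, and 18.9% (17.4 to 20.5%) of the strongest. The weakest quintile was thus close to the 32.2% found over every region outside the all-4 class, and the 4 stronger quintiles lay below it. The intervals of the second and the third quintile overlap.

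**Figure D3:**
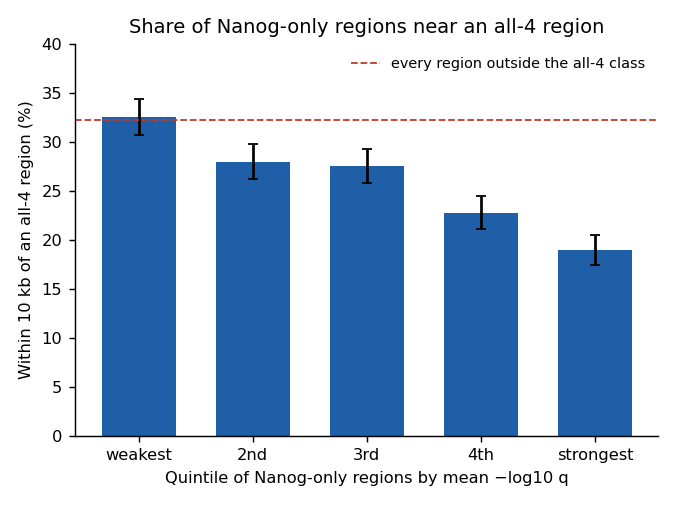
Share of Nanog-only regions within 10 kb of an all-4 region, by quintile of mean −log10 q, with 95% Wilson intervals. The share is 32.5% in the weakest quintile and 18.9% in the strongest, and the dashed line is the 32.2% of every region outside the all-4 class.

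Some near regions nevertheless belonged to the strongest of the Nanog-only class, and 19 of them were in its strongest 1%, where 15.4% (10.1 to 22.9%) were near. The strongest by mean −log10 q lay on chromosome 11 at 119256635-119257104, with FLAG folds of 30.3 in the Nanog + EV line and 24.9 in the dual line. It held 202 fragments over its summit in the first list (Poisson interval 175 to 232) and 199 in the second (172 to 229). The all-4 region that made it a near region, 1498 bp below at 119254158-119255136, had FLAG folds of only 6.25 and 4.53, with Sin3a folds of 5.89 and 5.48. The FLAG fold was thus higher at the region where no Sin3a peak was called. That region was picked for its strong FLAG peaks, however, so a weaker neighbour was likely from the start.

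The other strong near regions described here were picked in the same way, and each also had higher FLAG folds than its neighbour. On chromosome 5 the region at 142891345-142891912 had FLAG folds of 28.4 in the Nanog + EV line and 27.7 in the dual line. Its all-4 neighbour at 142900303-142901456, 8390 bp away, had FLAG folds of 7.96 and 9.95. On chromosome 8 the region at 73037058-73037801 had FLAG folds of 24.9 and 20.9, and its neighbour 2206 bp away had 7.83 and 6.65. Both neighbours had Sin3a folds between 4.63 and 6.71. On chromosome 2 the region at 35878725-35879376 had FLAG folds of 23.6 and 20.3, beside a neighbour 5906 bp away with 5.98 and 5.00. On chromosome 19 the region at 37272505-37273064 had FLAG folds of 22.1 and 21.6. Its neighbour, 7900 bp away at 37280965-37282744, was the reverse in kind, with FLAG folds of 4.30 and 3.85 and Sin3a folds of 8.68 and 7.82.

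The region on chromosome 12 at 55455678-55456378 stood apart among the strong ones, because its lists differed. Its FLAG fold was 13.6 in the Nanog + EV line and 24.5 in the dual line, from 108 (88.6 to 130) and 233 (204 to 265) fragments over the summit. Its all-4 neighbour, 1058 bp away, had FLAG folds of 5.52 and 6.14. On chromosome 4 the region at 89109128-89109799 had FLAG folds of 20.7 and 19.7, and it was 1 of 5 near regions around the same all-4 region.

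These strong regions were exceptions. The near region had a higher FLAG fold than its all-4 neighbour in both lists in 496 cases, 15.5% (14.3 to 16.8%), and a lower fold in both lists in 2141 cases, 67.1% (65.4 to 68.7%). The fold of a near region was nearly unrelated to that of its neighbour, with a Spearman correlation across the 3192 regions of 0.02 in the Nanog + EV line and 0.05 in the dual line. Between the lines, the folds of the same near regions went together (Spearman 0.63), as they did at far regions (0.63). Points of these correlations share lists, background and, where a neighbour has several near regions, the neighbour.

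Near regions were narrow. Their median width was 388 bp (quartiles 310 and 523 bp), against 397 bp (313 and 525 bp) for far regions and 894 bp (651 and 1224 bp) for all-4 regions. The contrast with all-4 regions is partly set by the rule, because those also join Sin3a peaks. Single Sin3a peaks had median widths of 498 bp (Sin3a + EV line) and 471 bp (dual line). For FLAG peaks these were 358 bp (Nanog + EV line) and 351 bp (dual line). The order of near and far widths turned when only peaks with a −log10 q of at least 10 were kept, the near median then being 1.06 times the far one. A single FLAG peak from each list made up 97.7% (97.1 to 98.1%) of near regions and 97.9% of far regions, but 78.0% (77.2 to 78.7%) of all-4 regions. Merging bears on this share too, since a Sin3a peak can join separate FLAG peaks into the same region. The FLAG summits of the lines lay a median of 38 bp apart at near regions (quartiles 16 and 76 bp), 36 bp at far regions and 39 bp at all-4 regions. A separation of up to 100 bp was found at 83.6% (82.3 to 84.8%) of near and 86.2% (85.5 to 86.9%) of far regions. The rule requires FLAG peaks of both lists in 1 merged region, which by itself limits these distances.

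The comparison of the lines sets Nanog at these sites with added Sin3a beside Nanog without it. The conditions are separate stable lines, so added Sin3a cannot be told apart from other differences between the lines. Because the FLAG lists were scaled separately, the ratio of their folds is read only against the same ratio at other regions. The median log2 ratio of FLAG fold, dual line over Nanog + EV line, was -0.08 at near regions (quartiles -0.32 and 0.15). It was -0.01 at far regions (-0.26 and 0.28) and -0.22 at all-4 regions (-0.41 and -0.02), so the near regions lay between the far and the all-4 regions. The near median was lower than the far one by 0.08 on the log2 scale, a small shift beside the spread of single regions. It was below the far median on 19 of 20 chromosomes (the exception was chromosome 5), and in each of the 5 strength quintiles.

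The ratio was graded with distance. Its median was -0.12 up to 0.5 kb from an all-4 region, -0.09 at 0.5 to 1 kb, -0.06 at 1 to 2 kb, -0.10 at 2 to 5 kb and -0.05 at 5 to 10 kb. Beyond the limit it went on to -0.04 at 10 to 20 kb, -0.02 at 20 to 50 and at 50 to 100 kb, and 0.03 over 100 kb. The step from 1 to 2 kb to 2 to 5 kb ran against this order. Over the members alone the Spearman correlation of distance and ratio was 0.08 (3192 regions), which is weak.

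**Figure D4:**
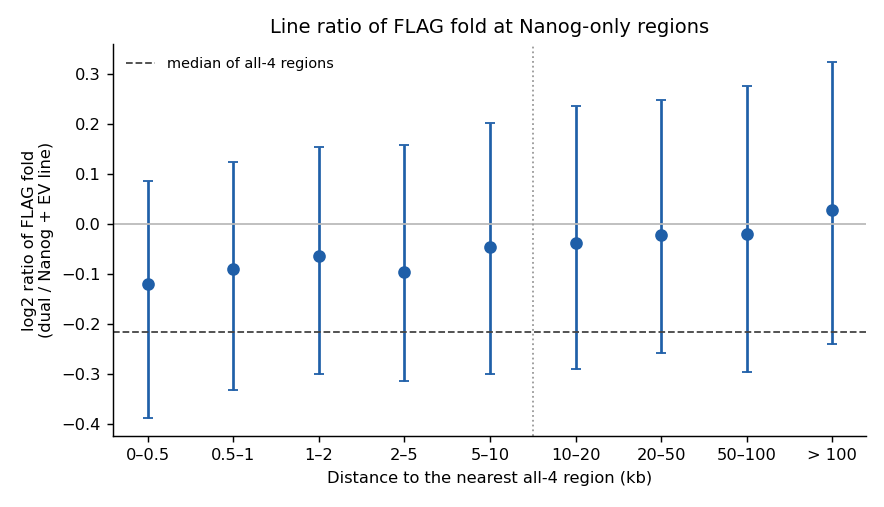
Median log2 ratio of FLAG fold, dual line over Nanog + EV line, at Nanog-only regions by distance to the nearest all-4 region, with quartiles as bars. The median is -0.12 in the nearest bin and 0.03 over 100 kb, the dashed line is the all-4 median of -0.22, and the dotted line marks 10 kb.

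Large differences between the lines were few. A fold at least 1.5 times higher in the dual line was found at 173 near regions, 5.42% (4.69 to 6.26%), where the same rule called 5.26% of all regions with FLAG peaks of both lists. A fold at least 1.5 times higher in the Nanog + EV line was found at 243 near regions, 7.61% (6.74 to 8.58%), where the rule called 8.28% of all such regions. Both shares are near the background and say nothing particular about the near regions. The far regions were the ones that departed from it, with 11.3% (10.7 to 12.0%) higher in the dual line and 6.33% (5.85 to 6.85%) higher in the Nanog + EV line. All-4 regions departed the other way, at 1.17% (0.994 to 1.38%) and 9.94% (9.41 to 10.5%). Without replicate values, none of these single regions can be called changed.

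Among the 1741 near regions that reached a −log10 q of 10 in at least 1 FLAG list, the highest ratio of fold was on chromosome 10 at 59031479-59032205. Its FLAG fold was 4.35 in the Nanog + EV line and 14.7 in the dual line, from 39 (27.7 to 53.3) and 126 (105 to 150) fragments. The expected background there was 7.00 in the first list and 5.34 in the second, so the log2 ratio was 1.76 by fold but 1.45 by scaled signal. On chromosome 14 the region at 21866753-21867407 had FLAG folds of 5.52 and 16.9. By scaled signal its log2 ratio was 1.67, the highest of the 3182 near regions with a fragment number in both lists. On chromosome 1 the region at 39585155-39585553 had FLAG folds of 3.93 and 12.0, and its log2 ratio was 1.61 by fold and 1.59 by scaled signal. On chromosome 5 the region at 20923895-20924347 had 3.27 and 9.92, with log2 ratios of 1.60 and 1.22 in the same order. The all-4 neighbours of these 4 regions had log2 ratios of fold of -0.29, -0.31, -0.30 and -0.73. The first 3 lie within the quartiles of all-4 regions given above and the last lies below them.

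The lowest ratio of fold was on chromosome 11 at 77747560-77748058, with a FLAG fold of 8.12 in the Nanog + EV line and 2.68 in the dual line, from 55 (41.4 to 71.6) and 39 (27.7 to 53.3) fragments. The expected background was 5.00 in the first list and 10.0 in the second, so the log2 ratio was -1.60 by fold but -0.74 by scaled signal. The neighbour at 77744186-77744736, 2823 bp away, had Sin3a folds of 12.6 and 12.0, the highest of the neighbours named here, and FLAG folds of 6.28 and 4.49. The background also differed between the lists at the next regions on chromosomes 4 (5.07 and 7.00) and 15 (5.00 and 7.00). On chromosome 4 the region at 116808642-116809145 had FLAG folds of 9.89 and 4.15, with log2 ratios of -1.25 by fold and -0.87 by scaled signal. On chromosome 15 the region at 38398936-38399613 had 6.09 and 2.87, with -1.09 and -0.70. On chromosome 5 the region at 65253643-65253963 had 6.28 and 2.97, with -1.08 and -1.11, and the last value was the lowest of the same 3182 regions by scaled signal. Of the neighbours of these 4 regions, 3 had a log2 ratio below 0, as did 77.2% of all-4 regions. The line ratio of a near region and that of its all-4 neighbour had a Spearman correlation of 0.04 across the 3192 regions.

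Near regions often came in groups. The 3192 regions had 2472 different all-4 regions as their nearest, and 1298 of them, 40.7% (39.0 to 42.4%), shared it with another near region. This share was not computed for other classes of region, and it was higher at a wider distance limit. Of the all-4 regions, 1894 were nearest to 1 near region, 467 to 2, 83 to 3, 25 to 4 and 3 to 5. Another Nanog-only region lay within 10 kb of 46.6% (44.9 to 48.3%) of near regions, against 32.0% (31.1 to 33.0%) of far regions. All-4 regions lay on both sides within 10 kb of 471 near regions, 14.8% (13.6 to 16.0%).

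The all-4 regions nearest to 5 near regions lay on chromosomes 4, 10 and 9. Around the one on chromosome 4 at 89113547-89114245 the near regions were all on the side of lower coordinates, from 274 to 6250 bp away, with FLAG folds in the Nanog + EV line of 4.14, 4.79, 20.7, 8.28 and 4.07 in order of distance. The all-4 region itself had FLAG folds of 11.9 and 11.2 and Sin3a folds of 3.65 and 3.48, so Sin3a was weak at the only place where it was called. Around chromosome 10, 92798455-92799765, 1 near region lay on the lower side and 4 on the upper, up to 8329 bp away. The strongest of these, at 92806142-92806635, had FLAG folds of 9.06 and 10.5 against 9.33 and 6.01 at the all-4 region.

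The group on chromosome 9 was different in make-up. Its all-4 region at 78328328-78330703 had Sin3a folds of 8.79 and 9.23 and FLAG folds of 8.87 and 7.91, while the 5 near regions, all on the lower side, had FLAG folds of 3.29 to 4.94 in the Nanog + EV line. These were weak peaks packed into a few kb beside a strong site of both proteins. Of the 25 all-4 regions nearest to 4 near regions, the one whose near regions had the highest mean −log10 q lay on chromosome 12 at 55506057-55506607, although its own FLAG folds were only 3.05 and 3.96 and its Sin3a folds 2.48 and 2.63. The near region at 55496178-55496712, 9344 bp away, had FLAG folds of 12.8 and 11.1.

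**Figure D5:**
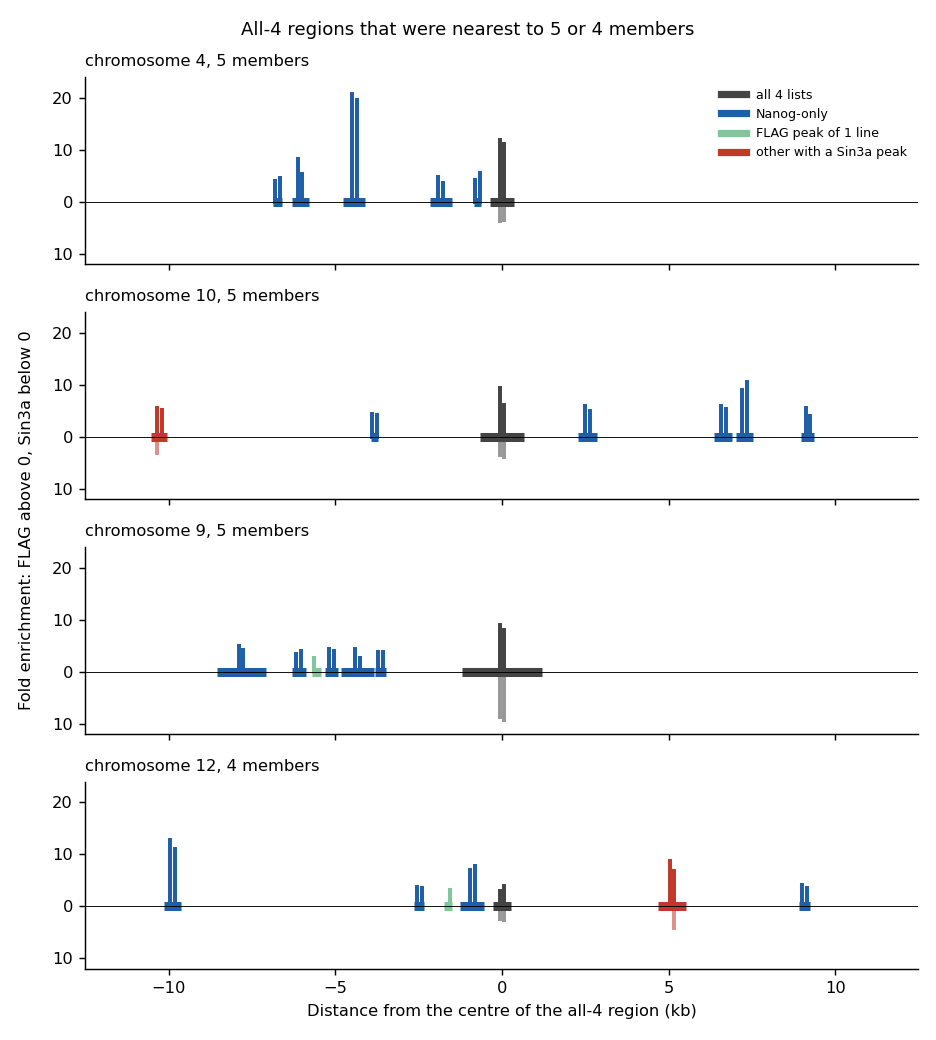
Regions around the 3 all-4 regions nearest to 5 near Nanog-only regions, and around 1 of the 25 nearest to 4, by distance in kb from the centre of the all-4 region. Bars above 0 are FLAG folds (left, Nanog + EV line, right, dual line), bars below 0 Sin3a folds (left, Sin3a + EV line, right, dual line), and blocks give each region's extent. The groups on chromosomes 4 and 9 lie on 1 side of the all-4 region, and the highest bar is the FLAG fold of 20.7 on chromosome 4.

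The all-4 region was not always the closest feature. It was the nearest region of any kind for 1645 near regions, 51.5% (49.8 to 53.3%). Another Nanog-only region was nearest for 17.4%, a region with a FLAG peak of 1 line only for 19.5%, and a region with Sin3a peaks only for 2.63%. No other region lay between a near region and its all-4 region in 63.9% (62.3 to 65.6%). For 598 near regions, 18.7% (17.4 to 20.1%), a region with a Sin3a peak that was not an all-4 region lay nearer, so those were closer to Sin3a than the distances above say. The all-4 region was at the lower coordinate in 49.9% (48.1 to 51.6%) of cases, an even split.

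The side of the all-4 region that faced a near region was more often FLAG than Sin3a. The outermost base on that side came from a Sin3a peak in 1231 of 3192 cases, 38.6% (36.9 to 40.3%), whereas 49.7% (49.0 to 50.3%) of both edges of every all-4 region came from a Sin3a peak. The share was 36.3% (32.4 to 40.3%) for the 560 near regions up to 0.5 kb away and 41.1% (38.1 to 44.1%) for those over 5 kb away. In the nearest group the median distance was 229 bp to a FLAG peak of the all-4 region and 287 bp to a Sin3a peak of it. The rule bears on these values, because a FLAG region reached by a Sin3a peak merges with it and is no longer Nanog-only. The 49.7% also covers all-4 regions without a near region, so it is not a matched background.

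All-4 regions with a Nanog-only region within 10 kb had less Sin3a and slightly more FLAG enrichment than those without. There were 3316 with one (28.2% of all-4 regions) and 8445 without. The median Sin3a fold was 5.07 (quartiles 3.98 and 6.69) against 5.66 (4.42 and 7.42) in the Sin3a + EV line, a ratio of 0.895. In the dual line it was 5.14 (4.10 and 6.57) against 5.65 (4.40 and 7.18), a ratio of 0.910. The FLAG medians went the other way, with 6.89 against 6.74 in the Nanog + EV line and 6.01 against 5.74 in the dual line, ratios of 1.02 and 1.05. The widths were close, with medians of 905 and 890 bp, as were the line ratios, with medians of -0.21 and -0.22. All of these shifts are small beside the quartile ranges. The rule also bears on them, because a nearby FLAG region counts as Nanog-only only where neither of these Sin3a lists has a peak in it. They are therefore given as a description.

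Chromosomes differed in the share of their Nanog-only regions that were near an all-4 region. It was highest on chromosome 19, at 36.2% (31.6 to 41.0%), followed by 32.4% (29.5 to 35.5%) on chromosome 11 and 32.0% (28.7 to 35.6%) on chromosome 7. It was lowest on chromosome 14, at 12.7% (9.40 to 16.8%), and on the X chromosome, at 13.4% (9.54 to 18.5%). The number of all-4 regions per Nanog-only region moved with this share. It was 1.21 on chromosome 19 and 0.68 on chromosome 14, and over the 20 chromosomes the Spearman correlation was 0.84. Much of this relation is built in. Both quantities are divided by the number of Nanog-only regions, and a near region needs an all-4 region beside it. Of the near regions 30 lay on the X chromosome, 0.940% (0.659 to 1.34%), against 2.13% (1.85 to 2.45%) of the far and 1.08% (0.908 to 1.28%) of the all-4 regions.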

How the data were processed

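Binding was measured by ChIP-seq in 8 ChIP samples in 4 groups of 2, with 1 input and 1 IgG sample that were not analysed here. Per the submitters' processing notes, FastQC 0.10.1, Bowtie 1.0.0, SAMtools 0.1.19 and build mm9 were used, with no role stated. Not given in the sources used here were the peak caller and the handling of replicates. The authors deposited 1 peak list per group: a fold (ratio) at the summit, a −log10 p, a −log10 q, and a score that equals 10 times the −log10 q without decimals. The lists held 17168 and 18231 Sin3a peaks (Sin3a + EV and dual lines) and 38485 and 36286 FLAG peaks (Nanog + EV and dual lines). Where a region held several peaks of a list, the one with the highest −log10 q gave its values.

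Fragment numbers were recovered from fold, taken as scaled signal plus 1 over background plus 1, and the −log10 p, within 0.0005. A single number resulted for 99.763 to 99.994% of the peaks, depending on the list, with scales of 0.868 and 0.731 for the FLAG lists. The depth of the libraries is not known here, and fragment numbers over a summit are a local signal and do not measure it. Of 4500 simulated peaks 99.6% gave 1 number, and it matched the simulated one in 100% of cases. The simulated peaks were made with the same formulas, so this checks the code and not whether the peak caller used them. Merging and distances differed from bedtools 2.31.1 at 0 regions. Shares carry Wilson intervals and fragment numbers exact Poisson intervals. Computation was in Python 3.11.15 (pandas 2.3.3, NumPy 2.4.6, SciPy 1.17.1), and plots were drawn with Matplotlib 3.10.9.

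The members, lists and measures were chosen with earlier results of these data known. Named regions are the 8 strongest members (1, on chromosome 18, is not reported here), the 3 nearest and 3 farthest members and the 3 regions just outside, the 4 highest and 4 lowest line ratios, and the 4 all-4 regions nearest to the most members, with ties broken by the mean −log10 q of those members. The only gene table at hand is of build GRCm38, so its coordinates were left unused and no region was assigned to a gene. Alternatives covered the distance limit and its definition, merging, −log10 q thresholds, the neighbour's definition, the measure of strength and width.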

Additional observations from a re-analysis of the deposited data

How the results depend on the processing

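No paired analysis was possible because the single list of a group holds no value for either replicate, and none of them could be left out either. The main limits are that a missing Sin3a peak depends on the calling threshold and that the FLAG lists were scaled separately. Stricter settings leave fewer peaks; otherwise the cause of a shift was not tested. Below, strict means that only peaks with a −log10 q of 10 and above were kept. The number of near regions (3192) stayed within 1.5 times under 7 alternatives, and was 922 with strict peaks. The share of Nanog-only regions that were near (25.9%) was 17.8% at 5 kb, 37.2% at 20 kb, 25.004% by summits, 24.2% with gaps of 200 bp merged, 21.8% with a −log10 q minimum of 5 and 13.5% with strict peaks. It was 34.3% with neighbours holding FLAG and Sin3a peaks of any line, 30.2% with those of the dual line, and 21.4% without the first 0.5 kb, an alternative chosen, like scaled signal and leaving out chromosome 6, after seeing the data. It stayed below the share of every region outside the all-4 class where this was computed, which was 24.1% at 5 kb, 43.0% at 20 kb, 28.4% with gaps merged, and 25.6% and 15.0% for minimum values of 5 and 10.

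The near over far ratio of FLAG fold in the Nanog + EV line (0.964) was 0.925 with −log10 q, 0.979 with strict peaks and 0.971 with scaled signal. In the dual line (0.896) it was 0.809 with −log10 q, 0.888 at 5 kb, 0.891 at 20 kb, 0.936 with strict peaks, and 0.851 against regions over 100 kb away. The ratio of widths (0.977) was 0.953 against regions over 100 kb away and turned to 1.06 with strict peaks. The difference of the median line ratio (-0.08) was -0.17 with −log10 q, -0.054 with strict peaks and -0.11 against regions over 100 kb away, and kept its sign in all 8 alternatives. The share of near regions with a shared neighbour (40.7%) was 30.9% at 5 kb, 49.4% at 20 kb, 37.3% with gaps merged and 34.2% with strict peaks.

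Ratios of the all-4 regions with over without a Nanog-only region nearby kept their side of 1. For Sin3a in the Sin3a + EV line (0.895) the ratio was 0.754 with −log10 q and 0.954 with strict peaks. In the dual line (0.910) it was 0.801 and 0.963 in the same order, 0.931 at 5 kb and 0.929 at 20 kb. For FLAG it was 1.06 and 1.07 in the Nanog + EV line (1.02) and 1.12 and 1.09 in the dual line (1.05). The median distance between FLAG summits (38 bp) was 28 bp with strict peaks.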
